A study of Mus musculus with 8 samples.

Results

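T cell and intraepithelial lymphocyte genes were followed in mouse small intestine and in adenomas described as small intestinal. A list of 38 genes was taken by symbol, covering the T cell receptor and CD3 chains, the coreceptors, proximal signalling proteins, cytotoxic effectors, checkpoint receptors and lineage factors. Of these, 37 matched a row of the count table of 39179 genes, and Trdc, the constant gene of the delta chain, is not analysed here. RNA of whole tissue was sequenced in 8 libraries. The 3 wild-type libraries were small intestine of VilCreER+ mice, which carry a tamoxifen-activated Cre recombinase under the villin promoter, active in intestinal epithelium. The 5 adenoma libraries were described as small intestinal adenomas, benign epithelial tumours, of VilCreER+ APCfl/+ mice. These mice carry a single floxed allele of Apc, a restraint on Wnt signalling. Both groups had tamoxifen-induced recombination in vivo and an inbred C57BL6/J background, and the series describes the adenomas as arising in aged mice, with no age given for either group. Cre acts in the epithelium, so the lymphocytes themselves were not its target. Whether each library was a different mouse is not in the labels, so the p-values speak of the spread among these libraries and no further.

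T cells recognise antigen through a receptor of alpha and beta chains, or of gamma and delta chains, held at the surface by the CD3 proteins, and the coreceptors CD4 and CD8 mark helper and cytotoxic lineages. The small intestinal epithelium holds a dense population of intraepithelial lymphocytes, many of them gamma-delta cells or cells with a CD8 alpha homodimer, which carry granzymes at rest and are anchored to E-cadherin by the integrin CD103. The lamina propria below it holds mostly CD4 cells, among them FOXP3+ regulatory cells that restrain other T cells.

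Levels are in CPM, counts relative to library size, scaled by TMM to correct for library composition. Log2 fold changes are adenoma over wild type with their SE, from an edgeR quasi-likelihood fit to all genes, and a gene was called at a Benjamini-Hochberg adjusted p below 0.05 over the 18345 genes tested. Total counts ran from 18040301 to 28343915 per library, and members below 1 CPM rested on few reads. Apc itself stood at 191 to 211 CPM in wild type and 132 to 159 CPM in adenomas (log2 fold change -0.45 ± 0.09, adjusted p = 0.00374), and the groups did not overlap. Epcam, a surface protein of epithelium, was at 930.4 CPM or more in every library. Adenoma 2 stood apart, with 246 CPM of the hindgut gene Hoxb13 against at most 0.894 CPM elsewhere. It held 0.470 CPM of the upper intestinal gene Gata4 against 68.4 CPM or more elsewhere. Both values go against the description of adenoma 2 as small intestinal, and the main fit includes it. Wild type 1 and adenoma 5 held pancreatic RNA, where the lipase gene Pnlip reached 190.04 and 63.5 CPM and no other library exceeded 0.798 CPM. Xist stood at 432 to 761 CPM in adenomas 2 to 5 and at 1.75 CPM or less in wild type and adenoma 1. These genes were chosen after their values were seen.

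Most of the T cell genes were lower in adenoma. Of the 37 members, 35 passed the filter on low counts, and 25 of these were called lower, 2 higher and 8 in neither direction. Over all genes tested, 58.1% were called, 27.8% lower and 30.3% higher. The median log2 fold change of the tested members was -1.49, against 0.04 over all genes tested. The groups did not overlap for 24 members that were lower and 1 that was higher, where 27.6% and 29.3% of all genes did so. The lower members included both classes of coreceptor, all 6 cytotoxic members and both surface markers of intraepithelial lymphocytes, while the 2 higher members, Ctla4 and Pdcd1, encode inhibitory receptors. In bulk tissue, fewer T cells and less of each RNA per T cell cannot be told apart. In adenoma 1, which shares the low Xist of wild type, 29 of the 35 tested members were below every wild-type library, as were 41.3% of all genes tested. Adenoma 1 is also part of the main comparison, so this is a description. With the Xist pattern as a covariate 10 members were called lower and 0 higher, where 12.5% of all genes were lower and 16.8% higher. That fit compares wild type with adenoma 1 alone, and in the other adenomas sex pattern and group cannot be told apart.

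**Figure D1:**
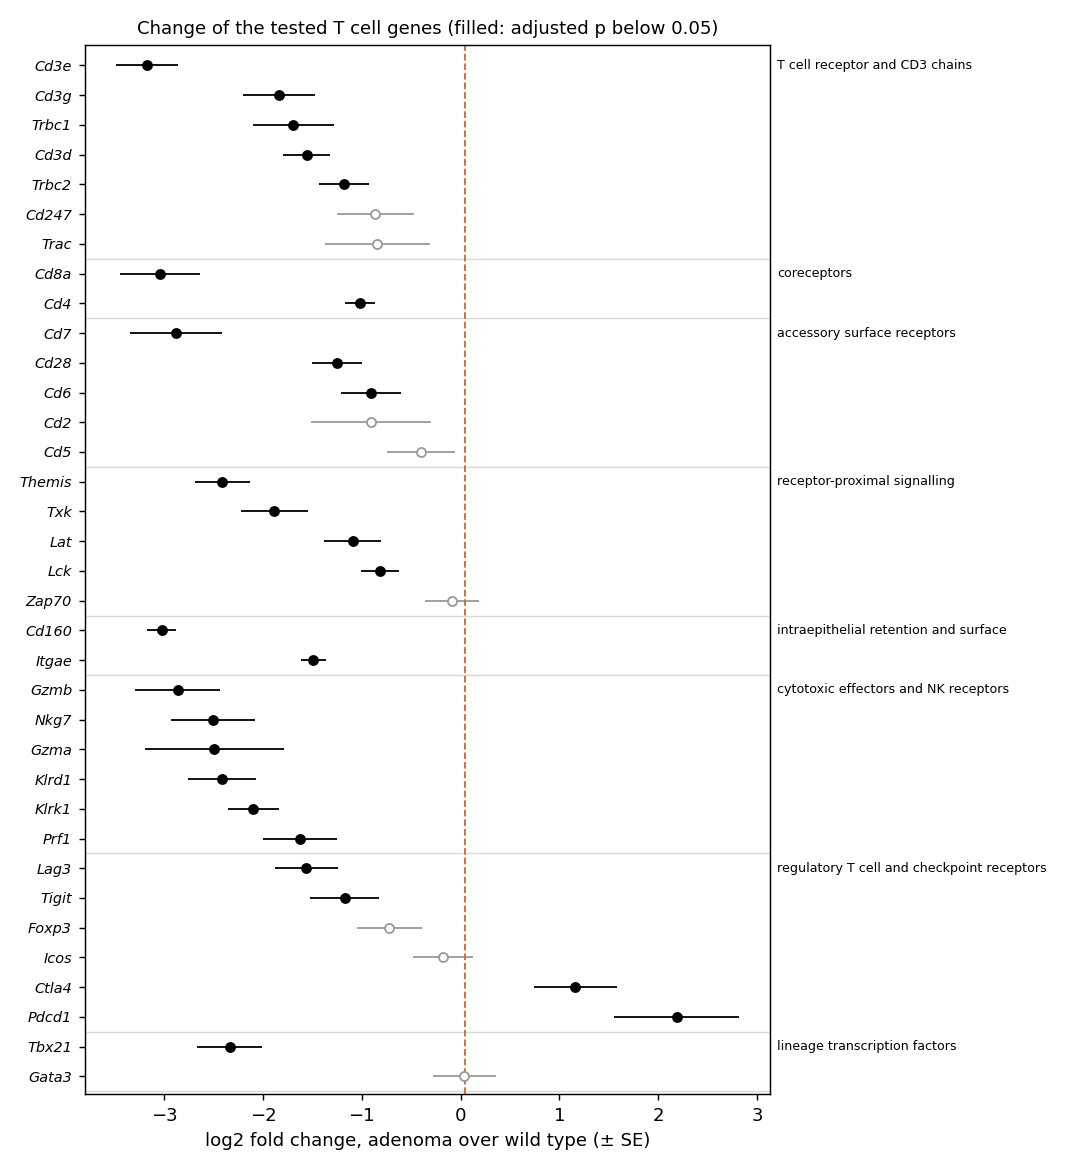
Log2 fold change of adenoma over wild type for the 35 tested members (horizontal axis, ± SE), by group, with filled points for adjusted p below 0.05 and a dashed line at the median of all genes tested, 0.04. The fold changes are below 0 for all but Ctla4, Pdcd1 and Gata3 and run from -3.18 for Cd3e to 2.19 for Pdcd1.

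The T cell receptor and CD3 chains fell unequally. Of 7 members tested, 5 were lower and 0 higher, where 27.8% of all genes were lower and 30.3% higher. Their median was -1.56 on the log2 scale. Cd3e (ENSMUSG00000032093, GRCm38 chr9:44998740-45009627), the epsilon chain of CD3, stood at 3.00, 3.40 and 4.31 CPM in wild type and at 0.373, 0.376, 0.313, 0.216 and 0.643 CPM in adenomas 1 to 5. Every adenoma was below every wild-type library, and the fall was 9.03-fold (log2 fold change -3.18 ± 0.31, adjusted p = 9.22e-05). The adenoma values rested on 5 to 19 counts each. Cd3g, the gamma chain of CD3, was at 11.8, 9.86 and 9.38 CPM in wild type and 2.89, 1.27, 2.86, 2.16 and 5.18 CPM in adenomas, again without overlap (log2 fold change -1.84 ± 0.36, adjusted p = 0.00268). Cd3d, the delta chain of CD3, fell from 2.02 to 3.41 CPM in wild type to 0.821 to 1.21 CPM in adenomas (log2 fold change -1.56 ± 0.24, adjusted p = 0.000734). Cd247, the signalling zeta chain, missed the threshold with overlapping groups (log2 fold change -0.86 ± 0.39, adjusted p = 0.0862) and passed it without adenoma 5 (adjusted p = 0.0111). Exons of Cd247 overlap those of Pou2f1 on the opposite strand and those of Gm16565 on the same strand. Together these overlaps covered 60.3% of its exon bases, where a kit that does not keep strand cannot assign reads.

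The constant genes of the receptor gave a mixed picture. Trac, the constant gene of the alpha chain, was at 2.95, 1.89 and 2.18 CPM in wild type and at 1.49, 2.77, 0.447, 1.30 and 0.575 CPM in adenomas. Adenoma 2 lay within the wild-type range and the other 4 below it, and Trac was not called (log2 fold change -0.84 ± 0.53, adjusted p = 0.198). Without adenoma 2 it was called (log2 fold change -1.32, adjusted p = 0.0160). The beta chain has a pair of constant genes, used interchangeably by T cells, and both were lower. Trbc1 went from 1.42 to 3.21 CPM in wild type to 0.357 to 1.22 CPM in adenomas (log2 fold change -1.69 ± 0.41, adjusted p = 0.00729), but not without wild type 1 and adenoma 5 (adjusted p = 0.0807). Trbc2 went from 3.23 to 4.43 CPM to 1.18 to 2.47 CPM (log2 fold change -1.18 ± 0.25, adjusted p = 0.00417).

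Reads of the beta constant genes cannot always be told apart, so their sequences are shown and each value is uncertain. Over the first 518 coding bases in GENCODE M21 transcripts they were 95.6% identical, with 23 mismatches and a longest identical run of 259 bases. Windows of 36 bases, the read length, were shared with the partner for 43.7% of Trbc1 and 47.3% of Trbc2. The last 150 of these bases, from base 369 to base 518, hold 22 of the mismatches, shown in capitals.
Trbc1: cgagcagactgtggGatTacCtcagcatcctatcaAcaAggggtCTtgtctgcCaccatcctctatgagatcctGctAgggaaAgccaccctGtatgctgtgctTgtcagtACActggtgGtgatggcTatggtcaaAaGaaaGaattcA
Trbc2: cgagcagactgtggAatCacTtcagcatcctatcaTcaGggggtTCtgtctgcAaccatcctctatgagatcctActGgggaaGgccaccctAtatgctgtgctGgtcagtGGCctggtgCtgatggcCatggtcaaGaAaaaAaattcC

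Both coreceptor genes that were tested fell. Cd8a (GRCm38 chr6:71373427-71379173), the alpha chain of CD8, was at 16.8, 15.05 and 17.4 CPM in wild type and at 2.05, 0.517, 2.55, 1.82 and 2.95 CPM in adenomas. The groups were far apart, with adenoma 2 lowest, and the fall was 8.25-fold (log2 fold change -3.04 ± 0.40, adjusted p = 0.000392). Cd4 (GRCm38 chr6:124864692-124888221), the helper coreceptor, which some myeloid and innate lymphoid cells also make, was at 11.3, 9.70 and 10.3 CPM in wild type and at 5.73, 4.55, 4.74, 4.41 and 6.23 CPM in adenomas. It did not overlap either, and it fell 2.03-fold (log2 fold change -1.02 ± 0.15, adjusted p = 0.000689). The log2 ratio of Cd8a to Cd4 counts was 0.65 ± 0.10 (SD, n = 3) in wild type and -1.56 ± 0.88 (SD, n = 5) in adenomas, with adenoma 2 lowest at -3.08. That ratio was chosen after the values were seen and was not tested. Cd8b1, the beta chain found on conventional CD8 cells, was at 1.32, 0.502 and 1.04 CPM in wild type and at 0.280, 0.235, 0.313, 0.0432 and 0.271 CPM in adenomas. It missed the filter on low counts, and in the fit without a filter its log2 fold change was -1.98 (adjusted p = 0.00818).

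**Figure D2:**
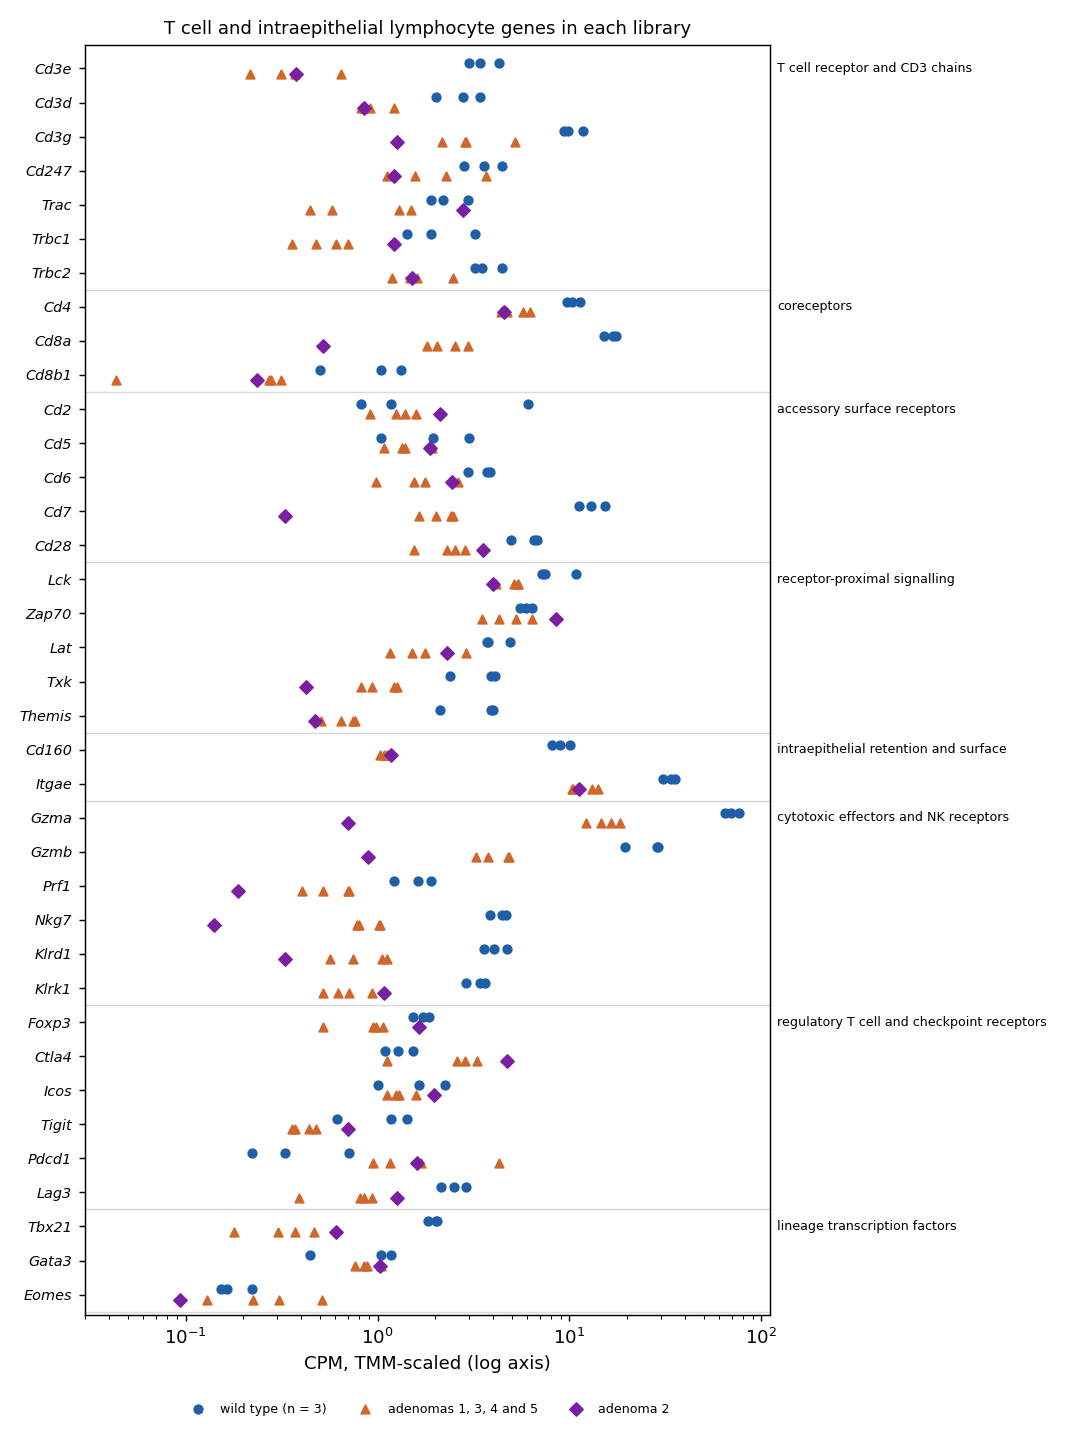
CPM of the 37 matched members in each library (horizontal log axis), by group of genes, with circles for the 3 wild-type libraries, triangles for adenomas 1, 3, 4 and 5 and diamonds for adenoma 2. Cytotoxic and intraepithelial genes separate fully, while Foxp3, Icos, Gata3 and Zap70 overlap, and the diamonds of Gzma, Gzmb, Nkg7, Cd7 and Cd8a lie well left of the triangles.

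Surface markers of intraepithelial lymphocytes were among the most clearly separated members. Itgae (GRCm38 chr11:73090583-73147446) encodes the alpha E chain of CD103, the receptor for E-cadherin, which some dendritic cells also carry. It stood at 33.6, 30.8 and 35.3 CPM in wild type and 13.1, 11.2, 10.4, 10.3 and 14.1 CPM in adenomas, 2.81-fold lower (log2 fold change -1.49 ± 0.13, adjusted p = 4.76e-05). The adenomas lay close together and far below wild type. Cd160 (GRCm38 chr3:96798763-96829351), a receptor of intraepithelial and natural killer lymphocytes, was at 10.03, 8.97 and 8.07 CPM in wild type and at 1.12, 1.17, 1.03, 1.12 and 1.08 CPM in adenomas. Its fall of 8.13-fold had the smallest adjusted p of the members (log2 fold change -3.02 ± 0.15, adjusted p = 7.03e-06), and adenoma 2 was level with the others. Exons of Pdzk1 on the opposite strand overlap 2.57% of its exon bases. E-cadherin itself, the ligand gene Cdh1, was at 464 ± 44.6 CPM (SD, n = 3) in wild type and 499 ± 21.5 CPM (SD, n = 5) in adenomas and was not called (log2 fold change 0.11 ± 0.11, adjusted p = 0.439). Cdh1 was chosen after its values were seen.

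All 6 cytotoxic members fell, with a median log2 fold change of -2.45, and none overlapped between groups. Over all genes tested, 27.8% were called lower and 27.6% were lower without overlap. Gzma (GRCm38 chr13:113093825-113100981), the protease granzyme A, was the member with the highest level, at 69.4, 64.4 and 76.4 CPM in wild type against 18.3, 0.704, 12.2, 14.5 and 16.5 CPM in adenomas. Adenoma 2 was far below the other adenomas. The log2 fold change was -2.49 ± 0.70 (adjusted p = 0.0172), and without adenoma 2 it was -2.19 (adjusted p = 2.33e-06). It was not called without wild type 1 and adenoma 5 (adjusted p = 0.0661). Gzmb (GRCm38 chr14:56258838-56262260), granzyme B, was at 19.4, 28.7 and 28.9 CPM in wild type and 3.78, 0.892, 3.26, 4.76 and 4.84 CPM in adenomas, 7.27-fold lower (log2 fold change -2.86 ± 0.43, adjusted p = 0.000784). Prf1, the pore-forming protein perforin, was at 1.22 to 1.91 CPM in wild type and 0.188 to 0.711 CPM in adenomas (log2 fold change -1.62 ± 0.38, adjusted p = 0.00598).

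Receptors shared by killer T cells and natural killer cells moved with the granzymes. Nkg7, a granule membrane protein, fell from 3.85 to 4.68 CPM to 0.141 to 1.03 CPM (log2 fold change -2.51 ± 0.43, adjusted p = 0.00128). Klrd1, the CD94 partner of NKG2 receptors, fell from 3.57 to 4.75 CPM to 0.329 to 1.12 CPM (log2 fold change -2.42 ± 0.34, adjusted p = 0.000508). Klrk1, the activating receptor NKG2D, fell from 2.90 to 3.62 CPM to 0.519 to 1.08 CPM (log2 fold change -2.10 ± 0.26, adjusted p = 0.000242). Adenoma 2 was the lowest adenoma for 5 of the 6 cytotoxic members, with Klrk1 the exception. Tbx21, the T-box factor T-bet that drives interferon gamma and cytotoxic programmes, was at 2.04, 1.84 and 2.02 CPM in wild type and 0.466, 0.610, 0.179, 0.303 and 0.372 CPM in adenomas (log2 fold change -2.34 ± 0.33, adjusted p = 0.000466). Its groups did not overlap. Eomes, a related factor, stayed at 0.513 CPM or less in all libraries and missed the filter. Of 13 further cytotoxic and natural killer genes tested, 8 were lower and 2 higher, where 27.8% of all genes were lower and 30.3% higher. The chemokine gene Ccl5 (log2 fold change -3.47 ± 0.41), the death ligand gene Fasl (-3.03 ± 0.32), the chemokine gene Xcl1 (-2.77 ± 0.27) and the cathepsin gene Ctsw (-1.93 ± 0.16) were lower, while the inhibitory lectin receptor gene Klrg1 was higher (1.24 ± 0.36, adjusted p = 0.0176). The other higher gene was the granzyme gene Gzme, named after its values were seen, at 0.0557 CPM or less in wild type and 0 to 0.886 CPM in adenomas (adjusted p = 0.0204).

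Promoters of members that moved together or apart are shown for Cd160 and Gzmb, which fell, and for Ctla4 and Pdcd1, which rose. RefSeq (GRCm38.p6) gave a promoter of 300 bases, mostly upstream of the start site, for 24 of the 38 members. Each was searched on both strands for the Runx motif TGTGGT, the ETS motif AGGAAG, the T-box motif GGTGTG, the TCF/LEF motif CTTTGA and the NFAT motif TGGAAA. Capitals mark every match, and on the minus strand a match reads as its reverse complement.
Cd160, chr3:96829302-96829601, minus strand: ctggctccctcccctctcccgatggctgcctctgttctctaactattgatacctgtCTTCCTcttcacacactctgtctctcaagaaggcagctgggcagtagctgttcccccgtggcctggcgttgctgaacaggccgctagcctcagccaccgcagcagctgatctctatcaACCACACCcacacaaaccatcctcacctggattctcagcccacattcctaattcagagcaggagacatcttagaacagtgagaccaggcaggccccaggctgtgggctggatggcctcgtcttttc
Gzmb, chr14:56262285-56262584, minus strand: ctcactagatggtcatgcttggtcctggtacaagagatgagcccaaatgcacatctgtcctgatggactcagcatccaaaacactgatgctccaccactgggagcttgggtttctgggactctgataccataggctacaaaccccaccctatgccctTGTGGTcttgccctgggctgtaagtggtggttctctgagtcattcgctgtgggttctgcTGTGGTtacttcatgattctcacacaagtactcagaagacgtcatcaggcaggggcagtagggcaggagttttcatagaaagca
Ctla4, chr1:60908775-60909074, plus strand: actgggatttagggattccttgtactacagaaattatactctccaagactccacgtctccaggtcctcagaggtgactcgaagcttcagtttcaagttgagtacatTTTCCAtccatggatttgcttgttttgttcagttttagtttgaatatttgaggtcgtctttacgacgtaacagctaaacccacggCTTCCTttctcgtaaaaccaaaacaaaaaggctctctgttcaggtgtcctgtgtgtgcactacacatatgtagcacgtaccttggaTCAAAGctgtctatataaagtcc
Pdcd1, chr1:94052504-94052803, minus strand: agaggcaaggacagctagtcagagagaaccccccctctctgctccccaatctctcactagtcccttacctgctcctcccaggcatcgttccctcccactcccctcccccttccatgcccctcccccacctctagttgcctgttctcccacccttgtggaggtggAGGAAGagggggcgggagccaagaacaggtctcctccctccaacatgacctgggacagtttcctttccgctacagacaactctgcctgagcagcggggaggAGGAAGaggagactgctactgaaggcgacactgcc

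The Runx and T-box matches of Cd160 overlap, at positions -76 and -74 from the start site. The Runx motif stood in 9 of the 24 member promoters, or 37.5%, against 16.9% of all 27025 promoters. The 9 were those of Cd160, Gzma, Gzmb, Prf1, Nkg7, Klrk1, Lck, Lat and Tigit, and no Runx match lay in the Ctla4 or Pdcd1 window. Nor did any lie in the windows of Cd3e, Cd3d, Cd3g, Cd8a, Themis, Txk and Tbx21, which were called lower. The 9 members with the motif were all called lower. Only 2 members were called higher, and whether the motif goes with the direction of change was not tested. The ETS motif stood in 58.3% of member promoters against 35.1% of all, the NFAT motif in 29.2% against 21.5%, the T-box motif in 25% against 19%, and the TCF/LEF motif in 25% against 16.2%. These matches describe the letters and were not tested as binding sites.

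Regulatory and checkpoint genes went in both directions. Of 6 members tested, 2 were lower, 2 higher and 2 not called, with a median log2 fold change of -0.45. These counts are near the shares over all genes tested, 27.8% lower and 30.3% higher. Foxp3 (GRCm38 chrX:7573644-7595245), the defining factor of regulatory T cells, was at 1.53, 1.73 and 1.86 CPM in wild type and 1.07, 1.64, 0.983, 0.519 and 0.948 CPM in adenomas. Adenoma 2 lay within the wild-type range and the other adenomas below it, and the gene was not called (log2 fold change -0.72 ± 0.33, adjusted p = 0.0862). Without adenoma 2 it was called lower (log2 fold change -0.95, adjusted p = 0.0113). Exons of other genes, among them Flicr and Ccdc22, overlap 31.5% of the Foxp3 exon bases. Icos, a costimulatory receptor of activated T cells, was at 1.00 to 2.24 CPM in wild type and 1.12 to 1.97 CPM in adenomas and was not called (log2 fold change -0.18 ± 0.30, adjusted p = 0.635).

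The inhibitory receptors split. Ctla4 (GRCm38 chr1:60887000-60915832), an inhibitory receptor highly expressed on regulatory T cells, was at 1.53, 1.28 and 1.09 CPM in wild type and 2.84, 4.74, 2.59, 1.12 and 3.28 CPM in adenomas. Adenoma 4 lay within the wild-type range and the others above it (log2 fold change 1.16 ± 0.42, adjusted p = 0.0395). The call was lost without any of the wild-type libraries and without adenoma 1, 3 or 5 (adjusted p from 0.0555 to 0.122). With libraries scaled to equal pan-epithelial counts the log2 fold change was 0.41 (adjusted p = 0.509). Pdcd1 (GRCm38 chr1:94038305-94052553), the receptor PD-1, was at 0.713, 0.223 and 0.327 CPM in wild type and 1.68, 1.60, 1.16, 0.951 and 4.30 CPM in adenomas. The groups did not overlap, and adenoma 5 was highest (log2 fold change 2.19 ± 0.63, adjusted p = 0.0161). The wild-type values rested on 4 to 14 counts. Without wild type 1 the log2 fold change was 2.81, and leaving out wild type 2 (adjusted p = 0.0605) or wild type 3 (adjusted p = 0.0618) ended the call, as did pan-epithelial scaling (log2 fold change 1.41, adjusted p = 0.0861). Lag3, an inhibitory receptor for MHC class II, fell from 2.14 to 2.89 CPM to 0.389 to 1.27 CPM (log2 fold change -1.56 ± 0.32, adjusted p = 0.00330). Tigit, an inhibitory receptor of T and natural killer cells, fell from 0.611 to 1.42 CPM to 0.357 to 0.704 CPM with overlap (log2 fold change -1.17 ± 0.35, adjusted p = 0.0186). Leaving out wild type 2 (adjusted p = 0.0641) or wild type 3 (adjusted p = 0.0966) ended this call.

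Of 8 further regulatory T cell genes tested, 2 were higher and 0 lower, a share of 25% higher against 30.3% of all genes. Tnfrsf9, the costimulatory receptor 4-1BB, rose from 1.11 ± 0.11 CPM (SD, n = 3) to 10.4 ± 2.17 CPM (SD, n = 5), a log2 fold change of 3.23 ± 0.23 (adjusted p = 2.41e-05). Il1rl1, the IL-33 receptor ST2, rose from 12.3 ± 3.02 to 148 ± 39.4 CPM (log2 fold change 3.58 ± 0.29, adjusted p = 4.03e-05). Mast cells can make both receptors, and 6 of 7 mast cell genes tested were higher, their sum going from 13.9 to 19.4 CPM in wild type to 63.7 to 159 CPM in adenomas. The part of mast cells in these 2 genes was not tested.

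Receptor-proximal signalling genes fell less evenly. Of 5 members, with a median of -1.09, 4 were lower, where 27.8% of all genes were. Themis, a signalling protein of developing and mature T cells, was at 3.92, 2.12 and 3.98 CPM in wild type and 0.746, 0.470, 0.760, 0.649 and 0.508 CPM in adenomas (log2 fold change -2.41 ± 0.28, adjusted p = 0.000190). Txk, a Tec family kinase, had a log2 fold change of -1.88 ± 0.34 (adjusted p = 0.00167), Lat, the scaffold below the receptor, -1.09 ± 0.29 (adjusted p = 0.0110), and Lck, the kinase bound to the coreceptors, -0.81 ± 0.19 (adjusted p = 0.00605). None of these 4 overlapped between groups, and 27.6% of all genes were lower without overlap. Zap70, the kinase that binds CD3 and zeta chains, was at 6.37, 5.52 and 5.95 CPM in wild type and 5.27, 8.55, 3.49, 4.28 and 6.36 CPM in adenomas. The groups overlapped, with adenoma 2 highest of all libraries, and Zap70 was not called (log2 fold change -0.09 ± 0.28, adjusted p = 0.795). Of 17 further T cell signalling genes tested, 11 were lower and 0 higher, where 27.8% of all genes were lower and 30.3% higher. The lower genes were led by the phosphatase gene Ptpn22 (-2.59 ± 0.18), the adaptor gene Skap1 (-2.47 ± 0.22) and the Ikaros family gene Ikzf3 (-2.38 ± 0.22).

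Accessory receptors ranged from a large fall to no call. Cd7, an early T and natural killer cell antigen, was at 15.3, 11.1 and 13.0 CPM in wild type and 2.47, 0.329, 2.01, 1.64 and 2.40 CPM in adenomas, without overlap (log2 fold change -2.88 ± 0.46, adjusted p = 0.00102). Cd28, the main costimulatory receptor, fell from 4.94 to 6.77 CPM to 1.56 to 3.52 CPM (log2 fold change -1.25 ± 0.25, adjusted p = 0.00300). Cd6, a receptor for the adhesion molecule ALCAM, was called (log2 fold change -0.91 ± 0.30, adjusted p = 0.0300) but lost without wild type 1, wild type 3, adenoma 4 or adenoma 5, with adjusted p from 0.0588 to 0.0946. Cd2, an adhesion receptor, was at 6.11, 1.17 and 0.818 CPM in wild type and 0.908 to 2.11 CPM in adenomas. Its wild-type level rested on wild type 1, and its log2 fold change turned from -0.90 to 0.54 without that library, uncalled both times. Cd5, a damper of receptor signals, also overlapped and was not called (log2 fold change -0.40 ± 0.35, adjusted p = 0.346). It turned to 0.03 without wild type 1. Wild type 1 held B cell and follicle RNA: there 11 B cell and plasma cell genes other than Jchain summed to 239 CPM against 39.4 to 52.1 CPM elsewhere. The part of this tissue in the T cell values of wild type 1 was not tested, and without that library 24 members were lower and 1 was higher, where 23.3% of all genes were lower and 25.7% higher.

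Gamma-delta T cells were read from the gamma chain. Of 8 further gamma-delta genes tested, 5 were lower and 0 higher, where 27.8% of all genes were lower and 30.3% higher. The constant gene Tcrg-C1 was at 3.06, 2.45 and 3.38 CPM in wild type and 0.419, 0.235, 0.313, 0.303 and 1.42 CPM in adenomas, with adenoma 5 highest of the adenomas and still below wild type (log2 fold change -2.40 ± 0.53, adjusted p = 0.00480). Tcrg-C2 (-2.66 ± 0.59, adjusted p = 0.00485) and Tcrg-C4 (-2.49 ± 0.43, adjusted p = 0.00127) moved alike. Windows of 36 bases were shared with other genes for 46% of Tcrg-C1 and 39.7% of Tcrg-C2, each sharing most with the other. Reads could thus not always be assigned between them, and Tcrg-C4 shared none. Tcrg-V7, the variable segment of the main gamma-delta population of small intestinal epithelium, went from 1.70 ± 0.52 CPM to 0.190 ± 0.191 CPM (log2 fold change -3.09 ± 0.73, adjusted p = 0.00634). The 4 gamma chain genes summed to 8.50 to 10.09 CPM in wild type and 0.470 to 3.05 CPM in adenomas. The log2 ratio of Tcrg-C1 to Trac was 0.35 ± 0.29 (SD, n = 3) in wild type and -1.29 ± 1.78 (SD, n = 5) in adenomas, from -3.44 in adenoma 2 to 1.28 in adenoma 5, so the groups overlapped. It took the place of the planned ratio with Trdc and was not tested.

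Helper genes were mostly too low to test. Of 16 genes 7 were tested, with 5 lower and 0 higher, where 27.8% of all genes were lower and 30.3% higher. The cytokine genes Il17a, Il17f, Il22, Il5, Il13, Il21 and Il2, chosen after their values were seen, missed the filter. Maf, a factor of helper cells, macrophages and other cells, fell from 189.7 ± 13.1 to 25.97 ± 5.30 CPM (log2 fold change -2.87 ± 0.16, adjusted p = 1.00e-05). Not scaled for gene length, its wild-type mean exceeded that of Ptprc, a gene of all leukocytes (127.6 ± 39.2 CPM). The part of helper cells in the fall of Maf was not tested. Stat4, a transducer of IL-12, fell from 5.32 ± 0.98 to 2.18 ± 0.45 CPM (-1.29 ± 0.21, adjusted p = 0.00105). Stat6, a transducer of IL-4, had a log2 fold change of -0.45 ± 0.10 (adjusted p = 0.00392). Gata3, the factor of type 2 helper cells, was at 0.446 to 1.17 CPM in wild type and 0.760 to 1.04 CPM in adenomas and was not called (log2 fold change 0.04 ± 0.32, adjusted p = 0.924), its sign turning with the scaling.

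Ratios within a library compare the classes without any scaling. Of 8 planned log2 ratios of counts 7 could be computed, each tested by an exact two-sided permutation test of the 3 and 5 libraries, over all 56 arrangements, for which the smallest possible p is 0.0179. Cd3e to Ptprc, the pan-leukocyte CD45 gene, went from -5.12 ± 0.63 (SD, n = 3) to -6.88 ± 0.50 (SD, n = 5), a difference of -1.76 (exact p = 0.0179, adjusted over 7 ratios 0.0312). Ptprc itself fell from 101 to 173 CPM to 36.3 to 55.98 CPM (log2 fold change -1.48 ± 0.20, adjusted p = 0.000407), so Cd3e fell further than Ptprc. Relative to Cd3e, Cd4 was higher in adenomas by 2.18, Foxp3 by 2.41 and Itgae by 1.71, each without overlap between groups and with the same exact p and adjusted p. Cd8a and Gzmb relative to Cd3e differed by less than the spread between libraries, with differences of -0.03 (exact p = 0.964) and 0.17 (exact p = 0.732). Cd8b1 to Cd8a differed by 1.18 with overlap (exact p = 0.232).

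These ratios rest on Cd3e, which had the lowest adenoma counts of the CD3 chains and the largest fall. With Cd3g below the line, an alternative chosen after seeing the data, the differences were -1.26 for Cd8a (exact test, adjusted p = 0.0625), 0.95 for Cd4 (exact test, adjusted p = 0.0833), 1.18 for Foxp3 (adjusted p = 0.125), 0.48 for Itgae (adjusted p = 0.268) and -1.07 for Gzmb (adjusted p = 0.125). The values near 0 for Cd8a and Gzmb were thus seen against Cd3e only. The 4 ratios past the threshold lost it with any library left out, where fewer arrangements raise the smallest p. Without adenoma 2 or adenoma 3, Cd3e to Ptprc was also above that smallest p (exact test, adjusted p = 0.1, against 0.0667 for the others). The ratio of Ctla4 to Foxp3, also chosen afterwards and not tested, was -0.39 ± 0.38 in wild type and 1.43 ± 0.25 in adenomas, and the highest wild-type value, 0, lay below the lowest adenoma value, 1.08.

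**Figure D3:**
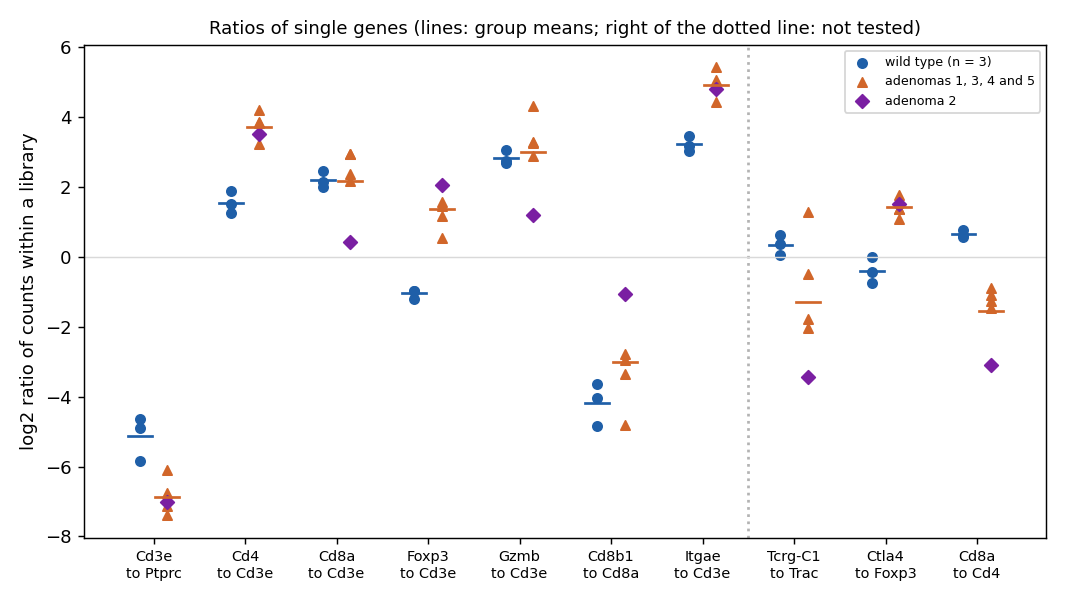
Log2 ratio of the counts of 2 genes within each library (vertical axis) for 7 tested ratios and, right of the dotted line, 3 ratios that were not tested, with circles for wild type, triangles for adenomas 1, 3, 4 and 5, diamonds for adenoma 2 and lines at group means. Cd4, Foxp3 and Itgae to Cd3e lie higher in every adenoma, Cd3e to Ptprc lies lower, and Cd8a and Gzmb to Cd3e overlap.

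Levels can be compared between genes only per length. Per kilobase of exon, Gzma had the highest mean of the members in wild type, 69.6 CPM per kilobase, followed by Gzmb at 17.9, Cd7 at 11.6 and Itgae at 7.26. In adenomas Gzma was still first at 12.4 CPM per kilobase, followed by Itgae at 2.58, Gzmb at 2.44 and Trbc2 at 2.38. The order of Itgae, Gzmb and Trbc2 in adenomas did not hold beyond their spread, since Gzmb varied from 0.892 to 4.84 CPM between adenomas. Per kilobase Zap70 passed from 1.99 to 1.87, and Ctla4 from 0.558 to 1.25. In wild type Cd8a (4.51) exceeded Cd4 (2.58) on this scale, while in adenomas Cd4 (1.27) exceeded Cd8a (0.543).

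The tissue around the lymphocytes was read from the factors that hold and feed them. Of 12 such genes 5 were lower and 0 higher, where 27.8% of all genes were lower and 30.3% higher. Il15, the cytokine that sustains CD8 alpha and gamma-delta intraepithelial cells, was at 49.0, 26.8 and 41.0 CPM in wild type and 7.27, 7.32, 9.16, 5.53 and 7.51 CPM in adenomas (log2 fold change -2.40 ± 0.21, adjusted p = 4.96e-05). Every adenoma was below wild type, adenoma 2 among the rest. Il15ra, the receptor chain that presents IL-15, fell from 17.7 ± 3.67 to 6.14 ± 1.19 CPM (-1.53 ± 0.19, adjusted p = 0.000259). Butyrophilin-like proteins of enterocytes shape the gamma-delta population, and Btnl4 (-1.83 ± 0.28, adjusted p = 0.000887) and Btnl6 (-2.36 ± 0.47, adjusted p = 0.00356) fell. Btnl1, which pairs with Btnl6, went from 284 to 379 CPM in wild type to 90.6, 3.24, 129, 100.4 and 99.8 CPM in adenomas. The groups did not overlap, yet Btnl1 was not called (log2 fold change -1.93 ± 0.81, adjusted p = 0.0726), and without adenoma 2 it was (-1.63 ± 0.14, adjusted p = 1.46e-05).

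Further factors of the epithelium had the same outlying library. Ccl25, the chemokine that draws T cells to the small intestine, was at 223 to 286 CPM in wild type and 80.1, 1.69, 96.9, 76.5 and 62.2 CPM in adenomas (adjusted p = 0.0802, and 1.96e-05 without adenoma 2). H2-T3, the ligand TL of the CD8 alpha homodimer, was at 142 to 180.2 CPM in wild type and 34.8, 0.704, 42.2, 37.0 and 47.0 CPM in adenomas (log2 fold change -2.26 ± 0.84, adjusted p = 0.0483). Btnl1, Ccl25 and H2-T3 were chosen after their values were seen. Without adenoma 2, 8 of the 12 factors were lower, where 33.5% of all genes were. With pan-epithelial scaling 10 were, where 58.8% of all genes were. Adenoma 2, the library with Hoxb13, was thus low both in these factors and in Gzma, Gzmb, Nkg7, Cd7 and Cd8a, while its Trac, Foxp3, Zap70 and Ctla4 were the highest of the adenomas. Whether its position in the gut bears on these values was not tested.

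**Figure D4:**
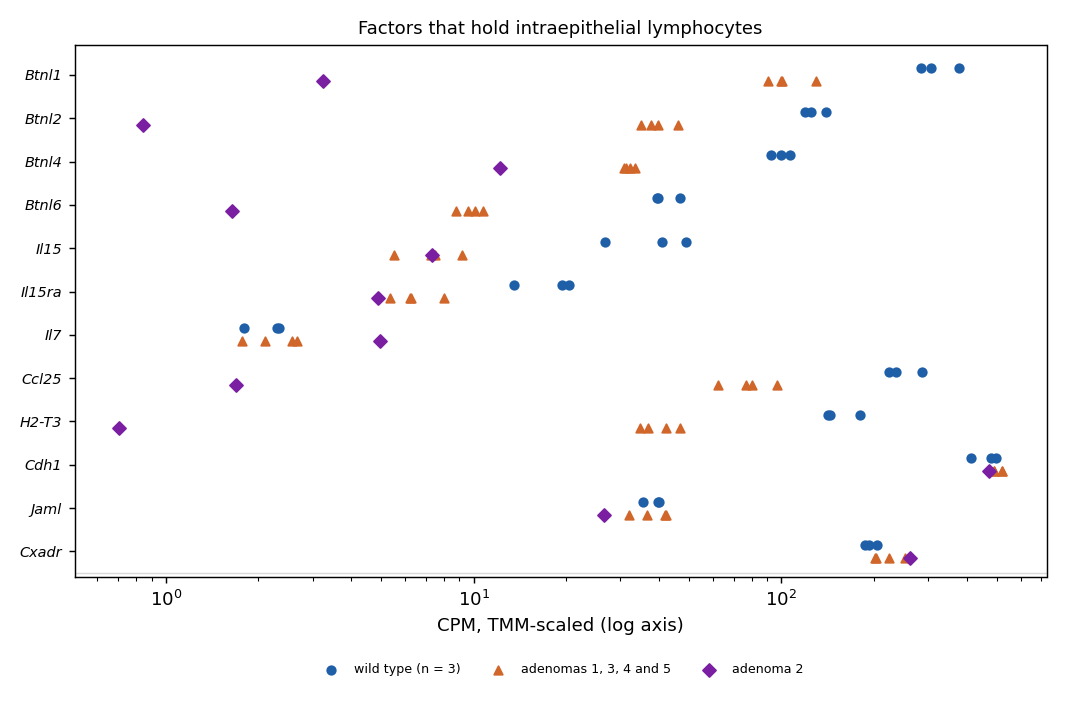
CPM of 12 factors that hold intraepithelial lymphocytes in each library (horizontal log axis), with circles for wild type, triangles for adenomas 1, 3, 4 and 5 and diamonds for adenoma 2. Il15, Il15ra, Btnl4 and Btnl6 are lower in every adenoma, Cdh1, Cxadr, Jaml and Il7 overlap, and adenoma 2 lies far left for Btnl1, Btnl2, Ccl25 and H2-T3.

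Other cell types moved beside the T cell genes. In the main fit 27.8% of all genes were lower and 30.3% higher, shares to be read beside each count here. Of 9 pan-leukocyte genes 6 were lower and 0 higher, with sums of 304 to 513 CPM in wild type and 161 to 234 CPM in adenomas. Pan-epithelial genes went the other way, with 8 of 10 higher and sums of 4249 to 4583 CPM in wild type and 5833 to 9414 CPM in adenomas. The 10 differed among themselves, with log2 fold changes from -0.20 to 2.65, so scaling to their sum depends on which genes are taken. Scaling to equal pan-epithelial counts moved the median of all genes from 0.04 to -0.80 and gave 30 members lower and 0 higher, where 58.8% of all genes were lower and 5.76% higher, with a member median of -2.32. Of 6 innate lymphoid and natural killer genes tested, 3 were lower and 2 higher. Ncr1 (-2.63 ± 0.67) and Il23r (-2.94 ± 0.29) fell, each below 1 CPM on average in wild type, and the 2 higher were Il1rl1 and Klrg1. The list summed to 60.2 to 76.6 CPM in wild type and 126 to 235 CPM in adenomas, of which Il1rl1 was the most abundant there, and Klra8 had 0 counts in every library. Of 12 myeloid genes 5 were lower, among them Itgax (-1.11 ± 0.12), and 3 higher, among them S100a8 (5.68 ± 0.94) and S100a9 (6.21 ± 0.94). The part of any of these cells in the member values was not tested.

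**Figure D5:**
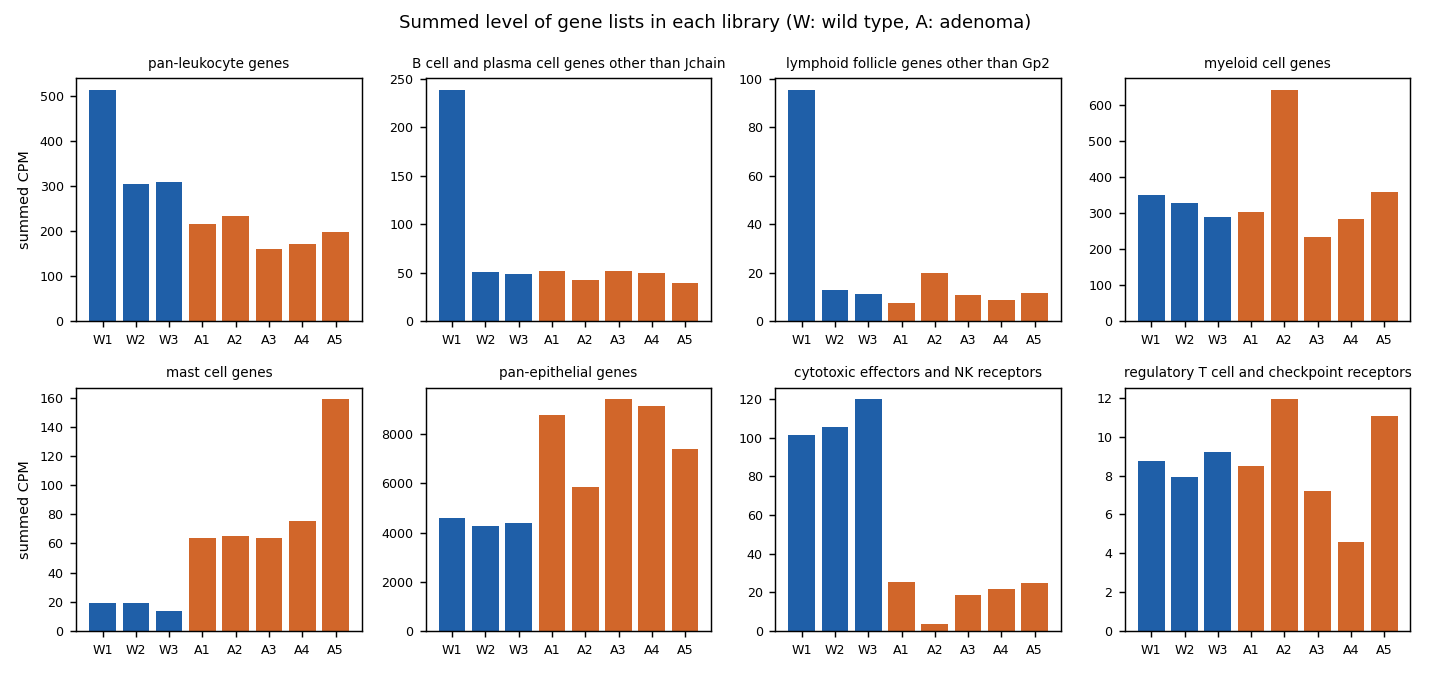
Summed CPM of 8 gene lists in each library (bars from 0), with wild type in blue and adenomas in orange. The cytotoxic sum goes from 102 to 120 CPM in wild type to 3.33 to 25.4 CPM in adenomas, the regulatory and checkpoint sum overlaps at 7.91 to 9.22 and 4.58 to 11.9 CPM, and wild type 1 stands apart in the B cell and follicle panels.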

How the data were processed

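Raw counts per gene were deposited by the authors as a single table. The labels' protocols name Qiagen RNeasy extraction, the TruSeq RNA kit, which marks no strand, and an Illumina NextSeq run of 36-base paired ends. FastQC, TopHat2, HTSeq and build GRCm38 are named in the submitters' processing notes, with versions, annotation release and strand setting not given in the sources used here.

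Symbols and positions came from GENCODE M21. In R 4.3.3 with edgeR 4.0.16, counts were filtered by filterByExpr, TMM-scaled and tested with robust quasi-likelihood fits over all 18345 genes kept. Ratios used 0.5 counts added to each gene. Libraries within a group differed beyond sampling noise (chi-square per degree of freedom at least 20.1). Counts of the same 18345 genes were also simulated with 200 genes changed, all with a mean above 1 CPM. The fit recovered 49% of 2-fold changes and 84% of 4-fold changes, with 8 false calls among 141. Far more genes were called in the data, and some members lay below 1 CPM, so these shares do not carry over to the members.

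The members and gene lists were chosen with earlier results of these data known. Every member may be named. Of other lists, up to 4 called genes with the smallest adjusted p and the leading gene of the minority direction are named, and other genes are marked as chosen after their values were seen. Alternatives were 4 other scalings, other filters, a replicate block, a sex pattern covariate, no ribosomal RNA genes, left-out libraries, limma-voom (limma 3.58.1) and DESeq2 1.42.0. Some of the genes this rule takes are not reported here.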

Additional observations from a re-analysis of the deposited data

Results flagged for a closer look

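Within the 5 adenomas, 7 of the 37 members had a highest or lowest library further from the others than Dixon's 95% critical value allows on the log2 scale. Chance flags about 1 in 20 groups. In 5 of the 7 the library was adenoma 2, each time the lowest. There Gzma stood at 0.704 CPM against 12.2 to 18.3 CPM in the other adenomas, and Gzmb at 0.892 CPM against 3.26 to 4.84 CPM. Nkg7 stood at 0.141 CPM against 0.778 to 1.03 CPM, Cd7 at 0.329 CPM against 1.64 to 2.47 CPM, and Cd8a at 0.517 CPM against 1.82 to 2.95 CPM. Cd3d, the delta chain of CD3, was highest in adenoma 1 at 1.21 CPM, with 0.821 to 0.914 CPM in the other adenomas. Cd8b1, the CD8 beta chain, was lowest in adenoma 4 at 0.0432 CPM, with 0.235 to 0.313 CPM in the others. Cd8b1 missed the filter on low counts. Its values, and that of Nkg7 in adenoma 2, rested on few reads, where sampling noise is wide on the log2 scale.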

How the results depend on the processing

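Of the 27 members called, 10 kept their call under all 20 alternatives (Cd3e, Cd4, Cd8a, Themis, Cd160, Itgae, Gzmb, Klrd1, Klrk1 and Tbx21), 11 lost it only with the sex pattern covariate, and 6 (Trbc1, Cd6, Gzma, Ctla4, Tigit and Pdcd1) lost it elsewhere too. None of the 27 changed sign. Cd247, Trac and Foxp3 passed the threshold under some alternatives. Depth limits members at a few counts per library, such as Cd3e in adenomas and Pdcd1 in wild type. The causes of the changes that follow were not tested.

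Over all genes, 5558 were higher and 5099 lower. With pan-epithelial scaling these were 1056 and 10792 (8.91% of calls higher against 52.2%), with the replicate block 3345 and 3204, and with the sex pattern covariate 3074 and 2298. Members called higher numbered 1 with upper-quartile scaling, limma-voom or without wild type 1 and adenoma 5, 0 with pan-epithelial scaling or the sex covariate, and 0 to 2 with each library left out. Members called lower numbered 10 with the sex covariate. Same-numbered libraries did not clearly deviate together (correlations -0.02, 0.05 and 0.06). The numbers thus gave no sign of a pairing, which so few libraries cannot exclude. With the replicate block 23 members were lower and 2 higher, and Cd6, Gzma and Tigit lost their calls.

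The uncalled members changed sign as follows. Without wild type 1 and adenoma 5, Cd2 was 0.56, Cd5 0.13 and Icos 0.17. Zap70 was 0.0023 with total-count scaling and Icos 0.0065 with the replicate block. Gata3 was -0.040 with upper-quartile scaling, -0.78 with pan-epithelial scaling, -0.0070 with 1 CPM in 3 libraries and -0.0033 with the sex covariate. With single libraries left out, Cd2 ran from -1.33 to 0.54, Cd5 from -0.71 to 0.027, Zap70 from -0.30 to 0.036, Icos from -0.42 to 0.13 and Gata3 from -0.27 to 0.30.

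The ratios kept their sign in most settings. Without wild type 1 and adenoma 5, Cd3e to Ptprc differed by -2.31, Cd4 to Cd3e by 2.48, Foxp3 to Cd3e by 2.66 and Itgae to Cd3e by 1.97, each uncalled (exact test, adjusted p = 0.117), and Cd8a to Cd3e by 0.11. With the pairing by replicate number the first 4 were -1.85, 2.19, 2.75 and 1.72 (exact p = 0.25, the smallest that 3 pairs allow) and Gzmb to Cd3e -0.24. Gzmb to Cd3e was -0.0047 with 2 counts added. With Cd3g in place of Cd3e, chosen after seeing the data, Cd8a was -1.26, Cd4 0.95, Foxp3 1.18, Itgae 0.48 and Gzmb -1.07. With each library left out, Cd3e to Ptprc ran from -2.12 to -1.52, Cd4 to Cd3e from 2.03 to 2.36, Foxp3 to Cd3e from 2.24 to 2.62, Itgae to Cd3e from 1.59 to 1.84, Cd8a to Cd3e from -0.22 to 0.40 and Gzmb to Cd3e from -0.17 to 0.61.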

Other observations

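Ligands of T cell receptors split in both directions, with 5 of 12 higher and 5 lower. All genes tested did so too, with 30.3% higher and 27.8% lower. Tnfsf9, the ligand of 4-1BB, rose from 0.405 ± 0.195 CPM (SD, n = 3) to 6.84 ± 2.59 CPM (SD, n = 5), a log2 fold change of 4.05 ± 0.50 (edgeR, adjusted p = 0.000257), beside the rise of its receptor gene Tnfrsf9. Fgl1, a ligand of LAG-3, rose from 0.506 ± 0.180 to 2.11 ± 0.73 CPM (2.05 ± 0.40, adjusted p = 0.00247), and Tnfsf18, the ligand of GITR, from 0.594 ± 0.127 to 1.51 ± 0.38 CPM (1.34 ± 0.30, adjusted p = 0.00526). Cd274, the PD-1 ligand PD-L1, fell from 11.03 ± 1.96 to 5.65 ± 1.43 CPM (-0.96 ± 0.21, adjusted p = 0.00493). Ulbp1, a ligand of NKG2D, rose from 1.83 ± 0.42 to 4.96 ± 1.17 CPM (1.43 ± 0.25, adjusted p = 0.00156), while its receptor gene Klrk1 fell.

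Of 10 homing receptor genes tested 6 were lower and 0 higher, where 27.8% of all genes were lower. Those lower included Gpr18 (-2.43 ± 0.21), a receptor of intraepithelial cells, and the integrin genes Itga4 (-1.43 ± 0.20) and Itgb7 (adjusted p = 0.000394). Of 8 chemokine genes tested 3 were called, a share of 37.5% against 58.1% of all genes. Cxcl11 (-3.32 ± 0.64, edgeR, adjusted p = 0.00233), an interferon-induced ligand of CXCR3, and Ccl22 (-0.72 ± 0.23, adjusted p = 0.0246) were lower and Ccl17 (1.16 ± 0.41, adjusted p = 0.0362) higher. Cxcr3, the receptor of CXCL11, fell from 1.81 ± 0.33 to 0.744 ± 0.177 CPM (-1.28 ± 0.26, adjusted p = 0.00281).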
